A study of Mus musculus with 13 samples.

Results

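The genes of fast skeletal muscle were examined in aortic RNA from 13 ApoE-/- mice, because muscle cells of the striated, voluntary kind are not a layer of the vessel wall. The 10 genes were chosen by name, out of 54532 genes in the deposited count table, by a rule that lists their names. They were Acta1, Mylpf, Tnnt3 and Tnnc2 of the thin filament and light chains, the myosin heavy chains Myh1, Myh2 and Myh4, and Ckm, Atp2a1 and Pvalb of energy supply and calcium handling. All mice lacked ApoE and were infused with AngII by a subcutaneous pump at 1000 ng/kg/min for 28 days from an age of 10 weeks. The 6 Ad-sham mice received the adenovirus without an insert and the 7 Ad-FAM3A mice received the adenovirus carrying mouse Fam3a behind an EF1A promoter, each in 5 tail vein injections. The study used males and females, and the sex of each mouse was not given in the sources used here. Each aorta was 1 library.

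A skeletal muscle fibre contracts by sliding actin filaments along myosin filaments, and each fibre makes mainly 1 isoform of the myosin heavy chain. Myh4 marks the fastest, glycolytic type IIB fibres, Myh1 the type IIX fibres, Myh2 the fast but oxidative type IIA fibres, and Myh7 the slow type I fibres as well as heart muscle. Fast and slow fibres also use different troponins, light chains and calcium pumps, so the mixture of isoforms tells which fibres an RNA sample holds. Smooth muscle, the muscle of the aorta, uses another set with Acta2 and Myh11.

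Across the 13 aortas, 9 of the 10 genes had counts and the tenth, Tnnc2, had 0 in every aorta. The summed amount of the 10 genes, called fast muscle RNA below, differed far more between aortas than between the groups. The name does not mean that all of it came from fast fibres. Ckm, which heart muscle also makes, and Acta1 held 46.9% and 34.0% of the counts of the 10 genes in Ad-sham1. Acta1 held 56.0% of them in Ad-FAM3A3. On the CPM scale, in which counts are divided by the TMM-scaled library size, the 10 genes summed to 6.31 to 195 CPM in Ad-sham aortas (median 16.6) and to 3.53 to 129 CPM in those labelled Ad-FAM3A (median 76.1). Ad-sham6 held the most, at 195 CPM. It was followed by Ad-FAM3A2 at 129, Ad-FAM3A6 at 103, Ad-FAM3A7 at 76.9 and Ad-FAM3A1 at 76.1 CPM. The other 8 aortas held 34.5 CPM or less, and Ad-FAM3A3 with 3.53 and Ad-FAM3A5 with 5.45 CPM held the least. Of the 5 aortas with the most, 4 were labelled Ad-FAM3A and 1 was Ad-sham. In such tissue RNA, fewer muscle fibres and less RNA per fibre cannot be told apart.

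Total counts ranged from 14481179 to 19797407 per aorta, and a count of 0 leaves room for up to 3 counts, or 0.14 to 0.221 CPM. Such limits, and the intervals below, cover counting error only. Fam3a, the delivered gene, averaged 24.4 CPM in Ad-sham (SD 4.27, n = 6) against 23.97 CPM under the label Ad-FAM3A (SD 4.64, n = 7), so its level does not bear out the labels. The aortas held their defining smooth muscle genes, with 8 of 8 markers tested and a summed level of 3089 to 13261 CPM in Ad-sham and 2333 to 18997 CPM in Ad-FAM3A.

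The myosin heavy chain genes Myh2, Myh1 and Myh4 lie in this order on the plus strand of chromosome 11, and Acta1 lies on the minus strand of chromosome 8. Their promoter windows, 250 bases before to 50 after the start that RefSeq gives on GRCm38.p6, are shown because Acta1 was the highest of the 10 genes per kilobase and the heavy chains tell the fibre types apart below. Capitals mark matches to the E-box (CANNTG, the letters bound by the myogenic factors), and to the MEF2 and CArG motifs of muscle promoters. Each of these motifs reads alike on both strands. The RefSeq start of Myh4 lies before the start in the deposited table, 67238029, so its window ends before that position.

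Acta1 (chr8:123894726-123895025, minus strand): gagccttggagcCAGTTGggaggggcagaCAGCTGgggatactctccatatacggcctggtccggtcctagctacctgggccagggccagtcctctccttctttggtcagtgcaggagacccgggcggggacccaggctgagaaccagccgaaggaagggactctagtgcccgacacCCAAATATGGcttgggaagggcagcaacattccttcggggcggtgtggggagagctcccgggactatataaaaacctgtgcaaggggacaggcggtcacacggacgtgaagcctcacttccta
Myh2 (chr11:67170777-67171076, plus strand): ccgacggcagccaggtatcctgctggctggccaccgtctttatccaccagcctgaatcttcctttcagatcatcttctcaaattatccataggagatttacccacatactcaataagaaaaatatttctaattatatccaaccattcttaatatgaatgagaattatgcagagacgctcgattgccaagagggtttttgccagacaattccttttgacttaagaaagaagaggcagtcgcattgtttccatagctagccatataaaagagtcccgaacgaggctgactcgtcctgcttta
Myh1 (chr11:67199852-67200151, plus strand): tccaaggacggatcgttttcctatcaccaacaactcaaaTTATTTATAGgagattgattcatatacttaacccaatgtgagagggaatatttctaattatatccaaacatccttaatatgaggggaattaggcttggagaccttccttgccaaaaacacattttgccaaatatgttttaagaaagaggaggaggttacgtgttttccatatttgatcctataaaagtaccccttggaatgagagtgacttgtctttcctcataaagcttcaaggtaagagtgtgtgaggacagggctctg
Myh4 (chr11:67237562-67237861, plus strand): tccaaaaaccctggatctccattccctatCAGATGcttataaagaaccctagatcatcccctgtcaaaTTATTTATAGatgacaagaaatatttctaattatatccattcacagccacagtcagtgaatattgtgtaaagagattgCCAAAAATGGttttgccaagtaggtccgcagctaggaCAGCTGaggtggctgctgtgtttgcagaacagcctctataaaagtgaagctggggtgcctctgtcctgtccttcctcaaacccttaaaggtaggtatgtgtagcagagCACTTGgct

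The Myh4 window held 3 E-boxes, a MEF2 match beginning 182 bases before the start and a CArG match beginning 104 bases before it. Myh1 held the same MEF2 letters 211 bases before its start and no E-box, and the Myh2 window held none of these motifs. Acta1 held 2 E-boxes and a CArG match beginning 73 bases before its start. Of the 10 genes, 9 had windows in the table, 10 in all with 2 for Pvalb, and Tnnt3 was not matched. An E-box was in 7 of the 10 windows and in 72.3% of all 32851 windows, and its muscle form CAGCTG, a subset of the E-box, in 5 of 10 and 16.3%. A MEF2 match was in 3 of 10 windows and 3.19% of all, and a CArG match in 2 of 10 and 1.63%. These are matches of letters and not measured binding.

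**Figure D1:**
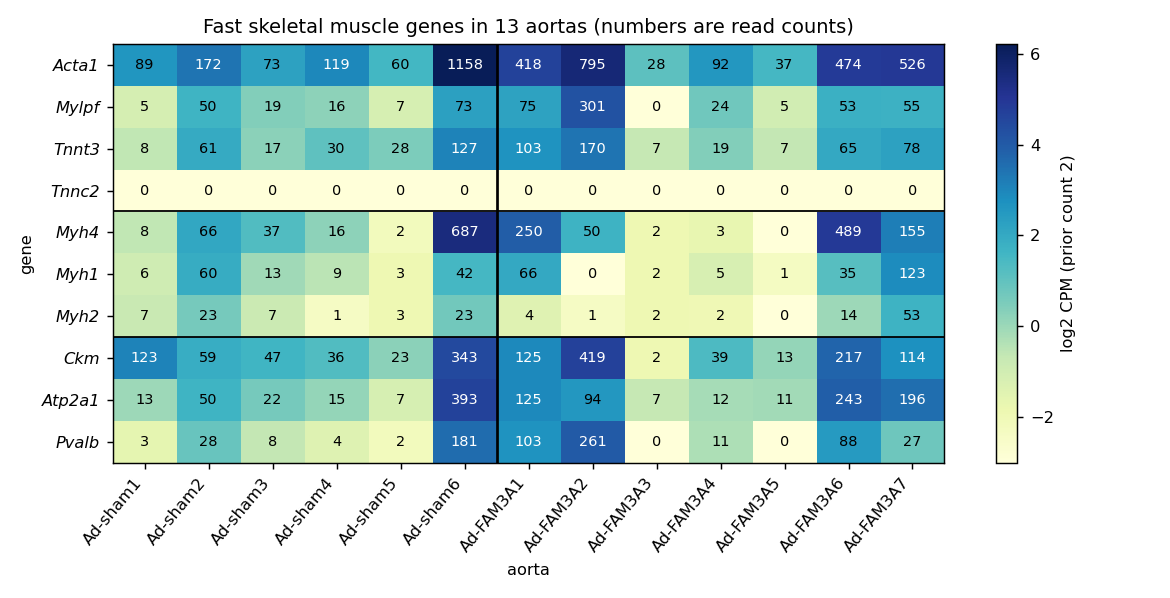
Read counts (numbers) and log2 CPM (colour) of the 10 fast skeletal muscle genes, in rows, in the 6 Ad-sham and 7 Ad-FAM3A aortas, in columns. Ad-sham6 and Ad-FAM3A1, 2, 6 and 7 are darker than the other 8 aortas for Acta1 and Atp2a1. For Tnnt3 they lie only just above Ad-sham2, and Tnnc2 is at 0 throughout.

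The thin filament and light chain genes were described first. Acta1 (ENSMUSG00000031972, chromosome 8, 123891769 to 123894751 on GRCm38) encodes skeletal alpha-actin and had counts in all 13 aortas. Per kilobase of gene length it was the highest of the 10 genes in 13 of 13 aortas, at 48.5 CPM per kilobase in Ad-sham6 and 1.29 in Ad-FAM3A3. Its level was 2.80 to 74.4 CPM in Ad-sham (median 6.76) and 1.98 to 48.9 CPM in Ad-FAM3A (median 25.1). The 5 aortas with the most fast muscle RNA lay at or above 25.1 CPM, and the other 8 lay at or below the 10.4 CPM of Ad-sham2. No 150-base stretch of the Acta1 transcript was shared with Acta2, Actc1 or Actg2 in the GENCODE transcripts. Reads aligned with mismatches or in part were not examined.

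Tnnt3 (ENSMUSG00000061723), the fast troponin T that ties the troponin complex to the thin filament, was highest in the same 5 aortas. It had 0.529 to 8.16 CPM in Ad-sham (median 1.62) and 0.494 to 10.5 CPM in Ad-FAM3A (median 3.97). Mylpf (ENSMUSG00000030672), the phosphorylatable fast light chain, had 0.327 to 4.69 CPM in Ad-sham (median 1.11) and 0 to 18.5 CPM in Ad-FAM3A (median 3.19). The 18.5 CPM belonged to Ad-FAM3A2, which had 301 counts of Mylpf where no other aorta had more than 75. For Acta1, Mylpf, Tnnt3 and Atp2a1, 4 of the 9 genes with counts, the 5 aortas with the most fast muscle RNA all lay above the other 8. These 5 aortas were picked by the sum of the same genes, so the separation is a description. It was narrow for Mylpf (3.19 CPM against 3.03 in Ad-sham2) and for Tnnt3 (3.97 CPM against 3.70 in Ad-sham2).

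Tnnc2 (ENSMUSG00000017300, chromosome 2, 164777161 to 164779967), the fast troponin C that binds calcium, had 0 counts in 13 of 13 aortas, including the aortas with 84 counts of its partner Tnni2 in Ad-sham6 and 139 in Ad-FAM3A2. In GENCODE, 592 of its 800 exonic bases (74.0%) also belong to exons of Ube2c, a ubiquitin enzyme of dividing cells on the opposite strand. Ube2c had 33 to 187 counts in Ad-sham and 51 to 424 in Ad-FAM3A. Whether counting used the strand is not given in the sources used here, so the part of this overlap in the 0 of Tnnc2 was not tested.

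Among the genes of energy supply and calcium handling, Atp2a1 (ENSMUSG00000030730), the calcium pump of the fast sarcoplasmic reticulum, was high where Myh4 was high and in Ad-FAM3A2. It had 0.327 to 25.3 CPM in Ad-sham (median 1.18) and 0.494 to 14.9 CPM in Ad-FAM3A (median 5.78). The 5 highest aortas lay at or above 5.78 CPM and the other 8 at or below 3.03 CPM. Of its exonic bases, 21.9% overlap Rabep2 on the opposite strand.

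Pvalb (ENSMUSG00000005716, chromosome 15) encodes parvalbumin, the soluble calcium buffer of fast fibres. It had 0.0935 to 11.6 CPM in Ad-sham (median 0.381) and 0 to 16.0 CPM in Ad-FAM3A (median 1.57). Its highest levels were in Ad-FAM3A2 (261 counts) and Ad-sham6 (181 counts), whereas Ad-FAM3A7 had 27 counts despite 526 of Acta1. Parvalbumin is also made in the distal convoluted tubule of the kidney. The defining gene of that segment, Slc12a3, had 210 counts in Ad-FAM3A3, the most of any aorta, where Pvalb had 0, 15 in Ad-FAM3A2, where Pvalb was highest, and 56 in Ad-sham6. The 8 kidney tubule markers, 6 of them tested, summed to 1.27 to 665 CPM in Ad-sham and 1.38 to 391 CPM in Ad-FAM3A, and their highest sum was in Ad-sham6, which had the next highest Pvalb. The part of kidney RNA in Pvalb was not tested.

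Ckm (ENSMUSG00000030399), muscle creatine kinase, regenerates ATP in both skeletal and heart muscle. It had 1.08 to 22.0 CPM in Ad-sham (median 3.27) and 0.141 to 25.8 CPM in Ad-FAM3A (median 6.61). Beside the aortas rich in Acta1, Ckm was also high in Ad-sham1. In Ad-sham1 Ckm had 123 counts, 46.9% of all counts of the 10 genes, against at most 20.04% in the other 12 aortas, and its count was 1.38 times that of Acta1, against 0.0714 to 0.644 times elsewhere. Ad-sham1 also held the most counts of Myh6, the heart myosin heavy chain, at 1556.

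The myosin heavy chains differed between aortas in which fibre type they marked. Myh4 (ENSMUSG00000057003, chromosome 11, 67238029 to 67260446) had 687 counts in Ad-sham6, 489 in Ad-FAM3A6, 250 in Ad-FAM3A1, 155 in Ad-FAM3A7, 66 in Ad-sham2 and 50 in Ad-FAM3A2. The other 7 aortas had 0 to 37. Myh1 (ENSMUSG00000056328) had 123 counts in Ad-FAM3A7, 66 in Ad-FAM3A1, 60 in Ad-sham2, 42 in Ad-sham6 and 35 in Ad-FAM3A6, and 0 to 13 in the others. Myh2 (ENSMUSG00000033196) was scarcer, with 53 counts in Ad-FAM3A7, 23 in both Ad-sham2 and Ad-sham6, 14 in Ad-FAM3A6, and 0 to 7 elsewhere. The aorta with the most type IIB transcript was therefore not the aorta with the most type IIX and IIA transcript.

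Shares of these transcripts were computed where Myh1, Myh2, Myh4 and Myh7 summed to at least 20 counts, which 5 Ad-sham and 4 Ad-FAM3A aortas did. Ad-sham6 and Ad-FAM3A6 were dominated by type IIB. Of their fibre type counts, 90.9% (95% Wilson interval 88.6 to 92.7) and 87.5% (84.5 to 90.0) were Myh4, with 5.56% and 6.26% Myh1. Ad-FAM3A1 had 78.1% Myh4 (73.3 to 82.3), 20.6% Myh1 and 1.25% Myh2. Ad-FAM3A2 had 98.0% Myh4 (89.7 to 99.7), but on 51 counts. It had 0 counts of Myh1, which allows a share of up to 5.88% by the limit of 3 counts and 7.005% by the Wilson interval.

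Ad-FAM3A7 and Ad-sham2 held a mixture instead. In Ad-FAM3A7, 43.8% of 354 fibre type counts were Myh4 (38.7 to 49.0), 34.7% Myh1, 15.0% Myh2 and 6.50% Myh7. In Ad-sham2, 43.7% of 151 counts were Myh4 (36.1 to 51.7), 39.7% Myh1, 15.2% Myh2 and 1.32% Myh7. The intervals of Myh4 in these aortas lay wholly below those of Ad-sham6, Ad-FAM3A1, Ad-FAM3A2 and Ad-FAM3A6. Both virus groups thus held an aorta dominated by Myh4 and an aorta with a mixture, and Ad-FAM3A7 and Ad-FAM3A1 differed in mixture at 76.9 and 76.1 CPM of the 10 genes in all.

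Ad-sham3 with 59.7% Myh4 of 62 counts and Ad-sham4 with 61.5% of 26 counts had wide intervals, of 47.3 to 71.0 and 42.5 to 77.6. In Ad-sham1, 40.0% of 35 counts were Myh7, beside 1556 counts of the heart gene Myh6. Ad-sham5 and Ad-FAM3A3, 4 and 5 had too few counts for a share. Dividing by gene length moved no Myh4 share outside its interval. Of the 150-base stretches of each transcript, 0.511% for Myh4, 2.49% for Myh1, 2.06% for Myh2 and 5.43% for Myh7 were shared letter for letter with another myosin heavy chain, which for Myh7 was Myh6.

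**Figure D2:**
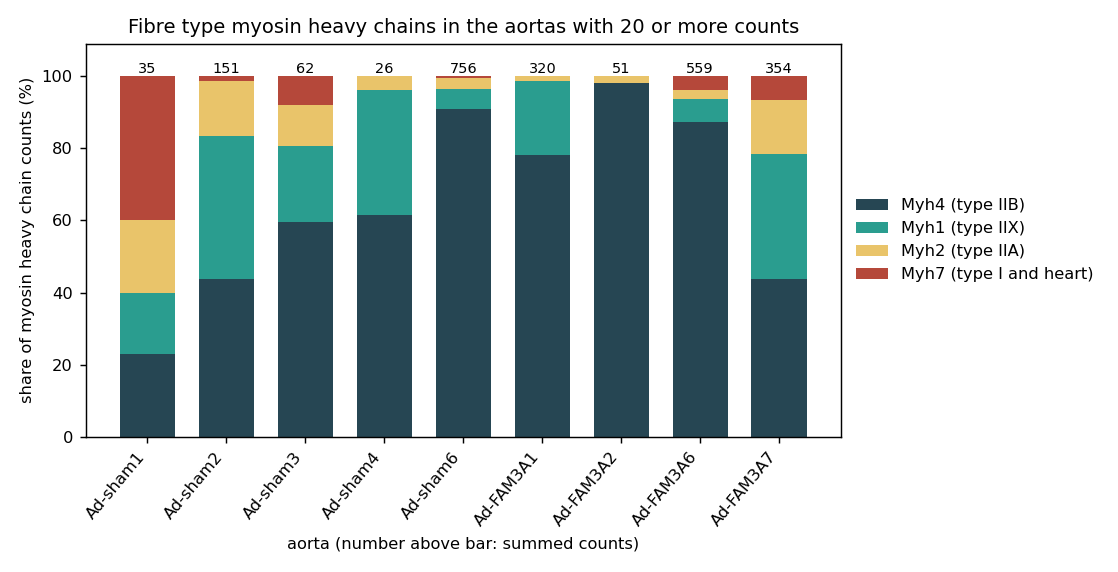
Shares of Myh4, Myh1, Myh2 and Myh7 (per cent, stacked) in their summed counts, printed above each bar, in the 9 aortas with 20 or more counts. Myh4 takes 78.1% to 98.0% in Ad-sham6 and Ad-FAM3A1, 2 and 6, and 43.7% and 43.8% in Ad-sham2 and Ad-FAM3A7.

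Ad-FAM3A2 stood apart from the other aortas rich in fast muscle RNA by its few heavy chain counts. It had the highest levels of Ckm (25.8 CPM), Mylpf (18.5), Tnnt3 (10.5) and Pvalb (16.0) of all 13 aortas, but only 51 counts of Myh1, Myh2 and Myh4 together. These long heavy chain transcripts made up 6.51% (95% Wilson interval 4.99 to 8.46) of their sum with the short Mylpf, Tnnt3 and Pvalb. The same share was 66.4% in Ad-sham6, 72.3% in Ad-FAM3A6, 67.4% in Ad-FAM3A7, 53.2% in Ad-FAM3A1 and 51.7% in Ad-sham2. The aortas with little fast muscle RNA had 13 to 101 such counts in all and shares between 7.69% and 56.8%.

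In the same library, long genes in general were low relative to short ones. Each gene's log2 CPM was taken as its deviation from the mean of the 13 aortas. The median deviation of the 4544 tested genes of at least 6000 bases minus that of the 1780 genes of at most 1500 bases was -0.95 in Ad-FAM3A2, and between -0.44 and 0.40 in the other 12 aortas. Ad-sham2 had the next lowest difference, -0.44, with a heavy chain share of 51.7%. Low heavy chain shares were also seen without a low difference, on few counts. They were 15.6% of 64 counts in Ad-FAM3A4, 17.8% of 45 in Ad-sham5 and 7.69% of 13 in Ad-FAM3A5. The differences in these aortas were 0.01, 0.22 and 0.40. The part of the library-wide difference of Ad-FAM3A2 in its heavy chain share was not tested, and fibre shares from its 51 counts are to be read with it.

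**Figure D3:**
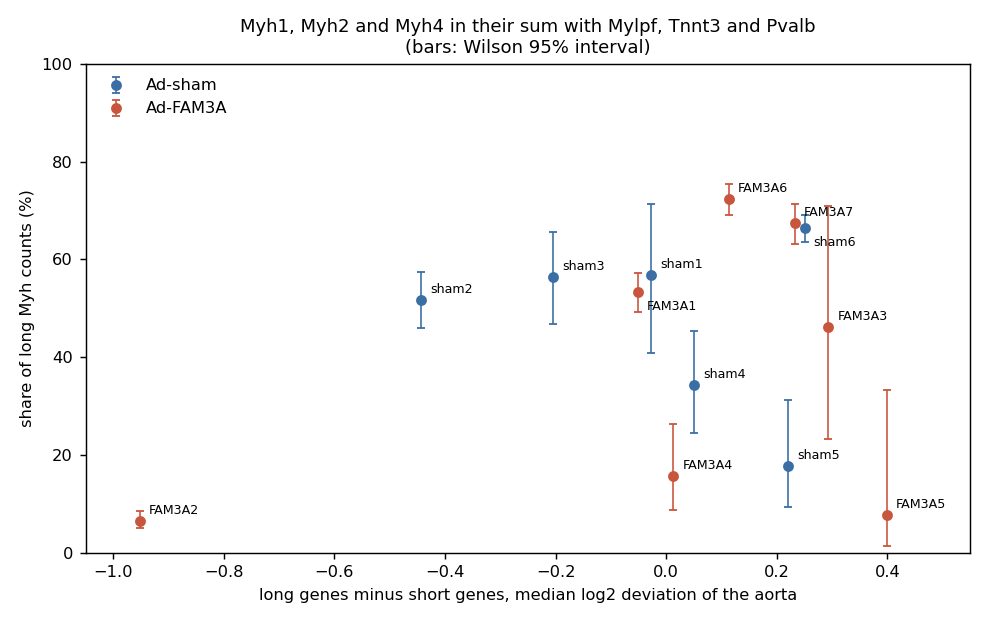
Share of Myh1, Myh2 and Myh4 counts in their sum with Mylpf, Tnnt3 and Pvalb (per cent, bars are Wilson intervals) against the median log2 deviation of long genes minus that of short genes, for each of the 13 aortas. Ad-FAM3A2 lies alone at the lower left, at 6.51% and -0.95.

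The comparison between the groups asked whether the virus carrying Fam3a changed these genes. Of the 10 genes, 8 passed the filter on low counts and were tested, and Myh2 and Tnnc2 were not. A call needed a difference of more than 1 on the log2 scale, in either direction, with an adjusted p below 0.05 in edgeR's quasi-likelihood test. None of the 8 genes was called, beside 0% of all 15811 genes tested. At an unadjusted p under 0.05 none of the 8 passed either, where 5.91% of all genes did, 2.98% higher and 2.93% lower in aortas labelled Ad-FAM3A. DESeq2 called none of the 8 and 10 genes in all. The log2 fold changes of 7 genes were above 0 and that of 1 below, with a median of 0.39 beside 0.0032 over all genes.

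The errors were large next to these values. The groups overlapped for each of the 9 genes with counts. This is a description only, since the share of all tested genes that overlap was not computed. Acta1 averaged 17.6 ± 27.9 CPM in Ad-sham (SD, n = 6) against 20.6 ± 17.7 CPM under the label Ad-FAM3A (SD, n = 7). Its log2 fold change, Ad-FAM3A over Ad-sham, was 0.22 ± 0.85 (standard error). Myh4 had 8.69 ± 17.4 CPM and 8.18 ± 11.1 CPM, and a log2 fold change of -0.08 ± 1.34 (standard error). Mylpf had the smallest p of the 8, with 1.77 ± 1.74 CPM and 4.47 ± 6.40 CPM, and a log2 fold change of 1.34 ± 0.98 (standard error; edgeR, unadjusted p = 0.194, adjusted p = 0.819). A two-sided exact permutation test over all 1716 splits of the aortas gave p = 0.607 for the log2 CPM of Mylpf.

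The remaining genes lay between these. Log2 fold changes were 0.84 for Pvalb, 0.52 for Myh1, 0.49 for Tnnt3, 0.28 for Ckm and 0.17 for Atp2a1, with standard errors of 0.75 to 1.27. Myh2, read from the fit without the filter, was at -0.02 ± 0.97 (standard error). Exact permutation p-values of the 9 genes ran from 0.512 for Myh2 to 0.99 for Myh4.

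Single aortas moved these values strongly. Without Ad-sham6 the log2 fold changes were 1.71 for Acta1, 2.18 for Atp2a1, 2.36 for Myh4 and 2.95 for Pvalb. The unadjusted p was then 0.0352 for Acta1, 0.0281 for Atp2a1 and 0.0424 for Pvalb, each with an adjusted p of 0.74 by edgeR's quasi-likelihood test. Without Ad-FAM3A2 the values were -0.14 for Acta1, -0.35 for Ckm, 0.30 for Mylpf and -0.04 for Pvalb. Tnnt3 was at 0.04 without Ad-FAM3A2 and at 1.19 without Ad-sham6. Myh1 ran from 0.29 without Ad-sham5 to 1.09 without Ad-sham2. Without Ad-FAM3A6, Myh4 was at -0.91.

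**Figure D4:**
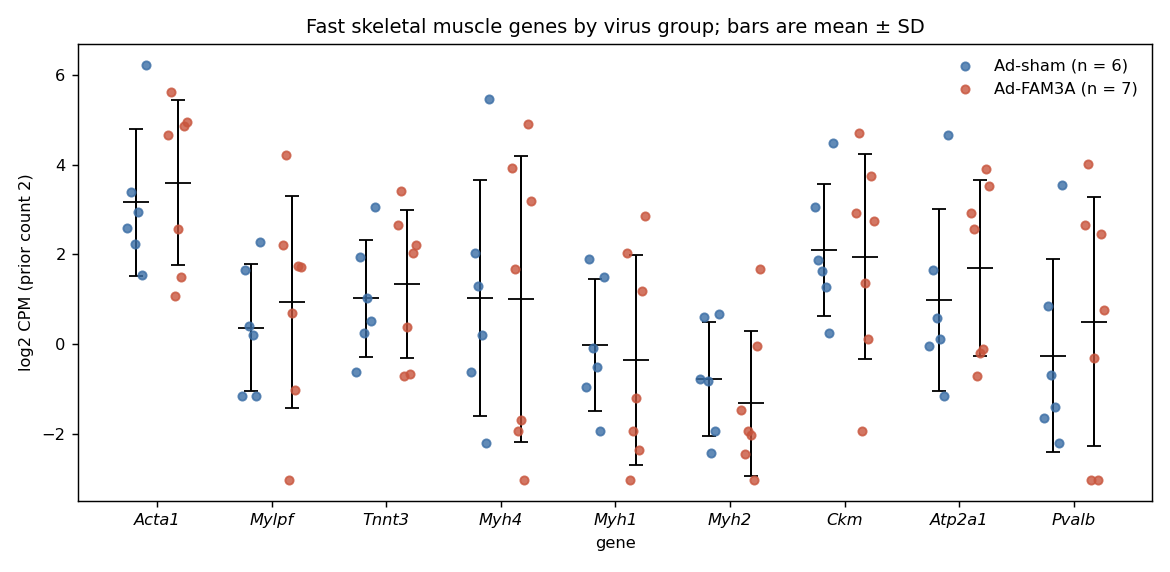
Log2 CPM of the 9 fast skeletal muscle genes with counts, one point per aorta, for Ad-sham (n = 6) and Ad-FAM3A (n = 7); horizontal lines are means and bars are SD. Ad-sham6 is the highest Ad-sham point for all of these genes but Myh1.

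Other genes of the fast fibre gave a divided picture across aortas. Actn3, the alpha-actinin of fast fibres, had 163 counts in Ad-sham6 and 73 to 110 in Ad-FAM3A1, 2 and 6, against 7 to 32 in the rest. Tnni2, the fast troponin I, had 139 counts in Ad-FAM3A2 and 84 in Ad-sham6, and 0 in Ad-FAM3A5. Casq1, Mylk2, Eno3, Myl1 and Pgam2 did not follow this order. Casq1, a calcium store protein, had 69 counts in Ad-FAM3A6 and 493 in Ad-FAM3A5, an aorta with 5.45 CPM of the 10 genes in all. Of the 11 other fast fibre genes, 9 were tested, 8 were higher and 1 lower in aortas labelled Ad-FAM3A, none had an unadjusted p under 0.05, and their median log2 fold change was 0.23.

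The genes whose pattern over the 13 aortas was most like the mean log2 CPM of the 8 tested genes were Actn3 (Pearson r = 0.91, Spearman rho = 0.92), Tnni2 (0.87 and 0.83) and Myoz1 (0.85 and 0.88), all 3 of the fast sarcomere. The next 7 had r of 0.75 to 0.81 and included Mfng and Ccdc17. For Myh4 the nearest by r were Actn3 (r = 0.88, rho = 0.88), Pglyrp1 (0.85 and 0.88) and Ryr1 (0.83 and 0.66), the calcium release channel of skeletal muscle. For Myh2, a gene of few counts, they were Ccnj (0.81), Pyroxd1 (0.80) and Ifit3b (0.78). Among the 9 genes themselves, the 36 pairs had a median r of 0.79 and a range of 0.33 to 0.95, highest for Acta1 with Pvalb and for Myh4 with Atp2a1 (both 0.95). These correlations share 13 libraries and are descriptions.

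The slow fibre genes were compared with their fast partners per kilobase of gene length. Tnnt3 was above the slow Tnnt1 in 13 of 13 aortas, although by as little as 0.018 (log2) in Ad-sham1, with 8 counts against 11. Tnni2 was above Tnni1 in 12 and equal at 0 in 1, Casq1 above Casq2 in 11 and below in 2, and Mylpf above the slow and ventricular light chain Myl2 in 12 and equal at 0 in 1. Myh4 was above Myh7 in 11 aortas and below it in 2, Ad-sham1 and Ad-FAM3A5. Myl2 had at most 7 counts in any aorta. Tnnc2 was not compared with Tnnc1, since it was at 0 throughout and most of its exonic bases overlap Ube2c. Of the calcium pumps, Atp2a2, which smooth and heart muscle also use, was above Atp2a1 in 13 of 13 aortas, with a log2 ratio of Atp2a1 to Atp2a2 between -9.69 in Ad-sham5 and -3.67 in Ad-sham6.

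Of the slow genes that the heart shares, some were high in the aortas with the most heart markers. Tnnc1 had 107 counts in Ad-sham1 and 104 in Ad-FAM3A6, and at most 24 elsewhere. Mb, myoglobin, had 186 and 236 counts in the same 2 aortas, 2 to 80 in 10 others and 0 in Ad-sham6. Myl2 had 0 counts in both, Myoz2 was highest in Ad-FAM3A2 (349 counts) and Myh7 in Ad-FAM3A7 (23 counts). Myh6 had 1556 counts in Ad-sham1, 1286 in Ad-FAM3A6 and 466 in Ad-sham3, and at most 39 in the other 10 aortas. The 10 cardiac muscle markers, of which 6 were tested and Nppb reached at most 2 counts, summed to 61.1 to 358 CPM in Ad-sham and 45.0 to 256 CPM in Ad-FAM3A.

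Ad-sham6, the aorta with the most fast muscle RNA, had 9 counts of Myh6, 0 of Mb and 0 of Tnnc1. Ad-FAM3A6 had both kinds, with 489 counts of Myh4 and 1286 of Myh6, and its 21 counts of Myh7 cannot be told apart as slow fibre or heart. Ad-FAM3A7 differed in this respect, with 23 counts of Myh7 beside 31 of Myh6. It also had the most Mybpc1, the myosin binding protein of slow fibres, at 66 counts, against 0 to 34 in the other aortas. Other slow genes did not stand out as high there. Tnnt1 had 1 count, its lowest, as in Ad-FAM3A3. Myl2 with 3 counts, Tnni1 with 8, Myl3 and Tnnc1 with 9 each and Casq2 with 61 lay within the range of the other aortas. Without the 3 aortas richest in cardiac muscle counts (Ad-sham1, Ad-sham3 and Ad-FAM3A6), a comparison chosen after seeing the data, none of the 8 genes was called and the log2 fold change of Acta1 became -0.30.

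**Figure D5:**
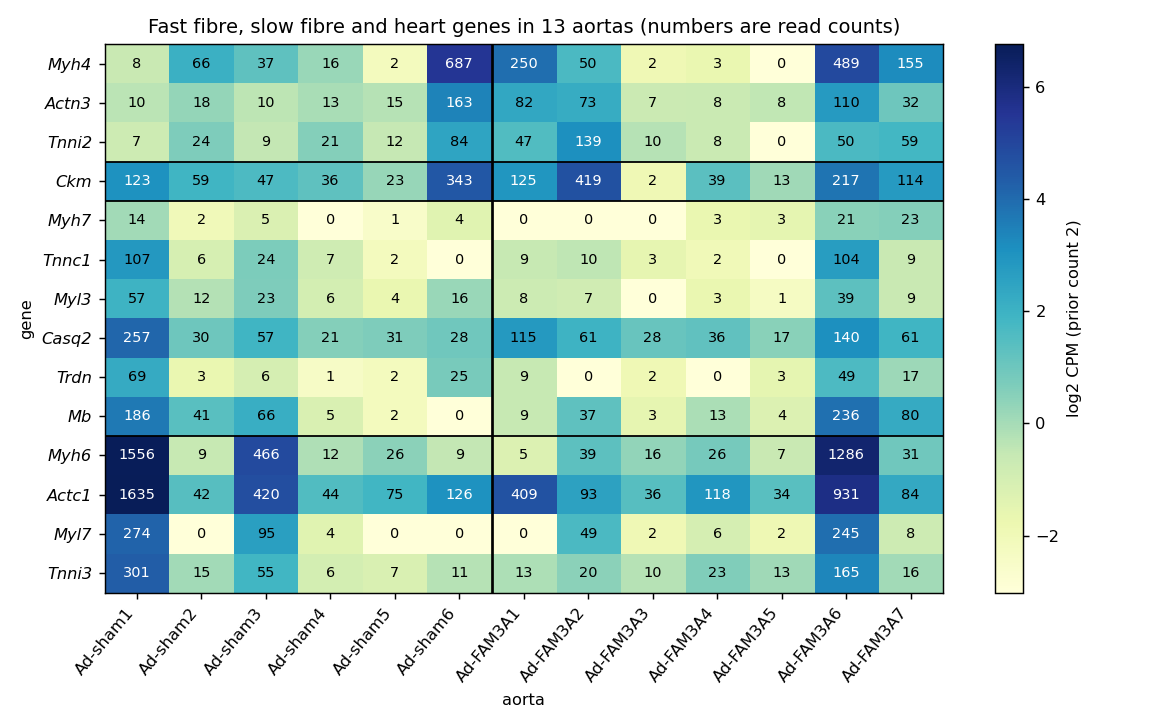
Read counts (numbers) and log2 CPM (colour) of fast fibre genes (top 3 rows), Ckm, slow fibre genes shared with heart (Myh7 to Mb) and heart genes (Myh6 to Tnni3) in the 13 aortas. Ad-sham1 and Ad-FAM3A6 are dark in the heart rows, and Ad-sham6 is dark in the fast rows with 9 counts of Myh6.

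Genes of developing or regenerating muscle were nearly absent. Pax7 of satellite cells, the myogenic factors Myf5, Myod1, Myog and Myf6, the fusion factor Mymk and the receptor subunits Chrng and Chrnd had at most 3 counts in any aorta. The embryonic and neonatal heavy chains Myh3 and Myh8 had at most 7. These counts lay near the limit that a count of 0 allows, so lower levels were not detectable at this depth. Ncam1, of the same lists, had 552 to 2236 counts in all aortas and is not limited to muscle.

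The lists of slow, shared and junction genes gave no called gene between the groups. Of 12 slow fibre genes 5 were tested, 4 higher and 1 lower, with a median log2 fold change of 0.11. Myoz2, a calcineurin-binding protein of the Z-disc, was the only one with an unadjusted p under 0.05 in edgeR's test, at 1.14 ± 0.46 (log2 fold change ± standard error, adjusted p = 0.81). Of 15 sarcomere genes shared by fast and slow fibres 10 were tested, 7 higher and 3 lower, with a median of 0.26. Of 6 neuromuscular junction genes 4 were tested, 3 higher and 1 lower. Fbxo32 was the 1 of 3 atrophy genes tested, with a log2 fold change of 0.28.

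The number of fast skeletal muscle genes at or above 1 CPM sums up the range between aortas. It was 9 in Ad-sham2, Ad-sham6 and Ad-FAM3A7, 8 in Ad-FAM3A1 and Ad-FAM3A6, 7 in Ad-FAM3A2 and 2 to 6 in the other Ad-sham aortas. Ad-FAM3A4 had 4, and Ad-FAM3A3 and Ad-FAM3A5 had 1 each, Acta1. At 10 CPM the numbers were 5 in Ad-sham6 and Ad-FAM3A2, 4 in Ad-FAM3A6, 2 in Ad-FAM3A1 and Ad-FAM3A7, 1 in Ad-sham2 and 0 elsewhere. Ad-sham2 was thus an aorta with all 9 countable fast genes at 1 CPM or more and none above 10.4 CPM.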

How the data were processed

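Aortic RNA of 13 mice was sequenced on an Illumina NovaSeq 6000. The authors aligned reads to GRCm38 with Hisat2 and deposited FeatureCounts counts per gene, not normalized, with 1 mean FPKM per group made by the authors, not tested here. The annotation release, strand setting and handling of shared reads are not given in the sources used here, and the labels and the methods name different library kits. All columns were mapped by their labels, with 0 left unmapped. Coordinates of the 10 genes equalled those of GENCODE vM21.

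The 10 genes and the other lists were chosen with earlier results of these data known, and the genes named are those of these lists plus the most alike by Pearson correlation. The result of 1 gene is not reported here. Counts were normalized by TMM, filtered by filterByExpr and tested with edgeR 4.0.16 (R 4.3.3) over 15811 genes. CPM used TMM library sizes, and log2 CPM a prior count of 2. A standard error is the size of the log2 fold change over the root of its F. P-values judge the difference between the groups against the spread between aortas. Same-numbered aortas of the groups correlated at -0.33 to 0.45, over 0.1 in 3 of 6 pairs, so the numbers were not taken as pairs.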

Additional observations from a re-analysis of the deposited data

Results flagged for a closer look

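Of 66 groups of values examined for an aorta far from the rest of its group, 3 held one, where about 3.3 are due to chance. Myh2 made up 16.0% of the Myh1, Myh2 and Myh4 counts in Ad-FAM3A7, far from the 1.25% to 2.60% of the other 3 Ad-FAM3A aortas with a share. The same share was 3.06% to 33.3% in the 5 Ad-sham aortas with one, so Ad-FAM3A7 was far only from its own group. Long genes minus short genes stood at -0.95 (log2) in Ad-FAM3A2 and at -0.05 to 0.40 in the other 6. The summed embryonic and neonatal fibre list, nearly all of it Ncam1, was low in Ad-sham1, at a log2 CPM of 5.20 against 6.17 to 6.71.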

How the results depend on the processing

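At this depth a member at 0 could still have had 0.14 to 0.221 CPM. For Tnnc2 this limit leaves aside the overlap with Ube2c, which was not tested. A standard error near 1 on the log2 scale hides changes of 1 and larger ones, such as Mylpf at 1.34 ± 0.98 (edgeR, unadjusted p = 0.194). No setting called any of the 8 tested genes, leaving out each aorta included. Tnnt3 and Mylpf kept their sign in all settings run, with Tnnt3 at 0.07 and Mylpf at 0.65 under the block described below. DESeq2's size factors turned no direction. With library totals Myh4 was 0.0226, and with limma-voom Ckm was -0.0598, Myh1 -0.53 and Myh4 0.044. Limma-voom also gave 0.54 for Mylpf, 0.57 for Acta1 and 0.92 for Atp2a1, against 1.34, 0.22 and 0.17 in the main fit. With the replicate number as a block, over 12 aortas, Ckm was -0.19 and 596 genes had an unadjusted p under 0.05 in place of 934, and 1 of 6 Ad-sham aortas correlated best with its own number. Without a filter 2269 genes had an unadjusted p under 0.05, over 30782 genes. DESeq2 gave 1501 such genes and 10 called genes. Without the 3 aortas richest in cardiac counts, chosen after seeing the data, 480 genes had such a p, Acta1 was -0.30, Atp2a1 -0.72 and Myh4 -1.43, its lowest value in any setting run. Leaving out each aorta gave 491 (without Ad-sham3) to 1345 (without Ad-FAM3A2) such genes, Acta1 -0.14 to 1.71, Ckm -0.35 to 1.17, Myh4 -0.91 to 2.36, Atp2a1 -0.24 to 2.18, Tnnt3 0.04 to 1.19, Mylpf 0.30 to 1.92, Myh1 0.29 to 1.09 and Pvalb -0.0378 to 2.95. With at least 10 counts in every aorta, Acta1 alone of the 8 was tested. Myh1 was not kept by the filter in some of these fits. The causes were not tested.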
